A study of Homo sapiens with 8 samples.

Results

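The data described here are the difference between lipid-loaded HepG2 cells given fenofibrate and lipid-loaded HepG2 cells given no compound. HepG2 is an established human hepatoblastoma line, a tumour-derived stand-in for hepatocytes. Arrays were chosen by their titles, 3 for each condition, so that 6 of the 8 arrays of the series entered the difference. Cells of both conditions took up fat from 400 µM albumin-bound oleate over 24 h. They then spent 24 h in serum-free medium, either alone or with 100 µM fenofibrate. A second label adds palmitate to the oleate, and which of the labels holds was not settled. Whether the untreated cells were also kept without serum is not said in the labels used here. Each array set a treated sample, labelled with Cy3, against untreated HepG2 cells, labelled with Cy5, and no dyes were swapped. The 2 remaining arrays of the series, from lipid-loaded cells given 1 mM linalool, entered the estimate of the spread. The labels call the arrays of a condition biological replicates without naming separate cultures. The p-values rest on the spread between arrays within each condition, linalool included, and that spread may be technical. Probes were averaged per gene, and 18819 genes were tested.

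Fenofibrate is a lipid-lowering drug. Its acid binds PPARα, a nuclear receptor that pairs with RXR receptors and, when bound by fatty acids or fibrates, raises transcription of genes for fatty acid uptake, oxidation and ketone body synthesis in the liver. Known targets also include secreted regulators of lipid and energy metabolism such as ANGPTL4 and FGF21, and fibrates are known to lower apolipoprotein C-III and fibrinogen.

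Values are deposited log2 ratios between treated and untreated cells, and a difference is the fenofibrate mean minus the mean with no compound. The labels do not say which channel is the numerator, so higher and lower refer to the deposited sign and do not tell which condition held more RNA. Ratios give no level, so the labelled cell type could not be checked by the level of its markers. The plot of array spread shows that the ratios spread more widely on the arrays with no compound. The median absolute deviation over genes was 0.843, 0.613 and 0.588 on lipid-loaded replicates 1, 2 and 3 and 0.541, 0.410 and 0.436 on fenofibrate replicates 1, 2 and 3, so the groups did not overlap. The main results are therefore also given after scaling all arrays to equal spread, and the part of the unequal spread in the results was not tested. Fenofibrate replicate 3 stood apart: across genes it correlated with the other 7 arrays at r = 0.071 to 0.101. Fenofibrate replicates 1 and 2 reached 0.578 and 0.415 with their closest array, which for both was lipid-loaded replicate 1. With each other they correlated at 0.356, and the lipid-loaded arrays among themselves at 0.541 to 0.623. Genes are not independent replicates. Replicate 3 lay farthest from the fenofibrate mean in 8114 genes, 43.1% of those tested, and values without it are given beside the results.

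**Figure D1:**
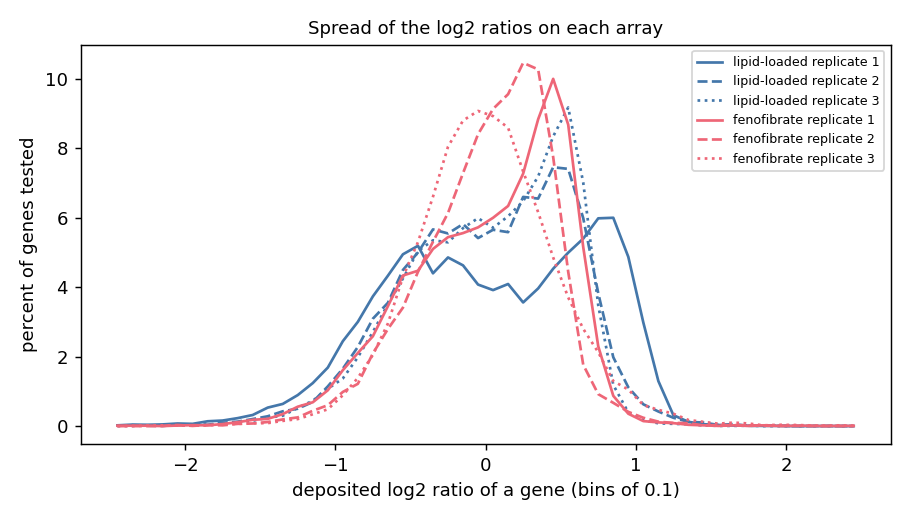
Share of the 18819 tested genes (y axis, percent) by deposited log2 ratio (x axis, bins of 0.1) on each lipid-loaded array (blue) and each fenofibrate array (red), with line types for replicates. The blue curves are wider, with median absolute deviations of 0.588 to 0.843 against 0.410 to 0.541 for the red ones.

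No gene passed the test of fenofibrate against no compound. limma called 0 of 18819 genes (0%) at a Benjamini-Hochberg adjusted p under 0.05, and the smallest adjusted p was 0.472. At an unadjusted p under 0.05 there were 1934 genes, of which 928 (4.93%) had a negative and 1006 (5.35%) a positive difference. The median standard error of a difference was 0.273, and in the median gene the 95% interval reached 0.598 to either side. In 2335 genes (12.4%) all 3 fenofibrate values lay below all 3 values with no compound, and in 1203 genes (6.39%) all 3 lay above. These shares are the background for the counts of gene groups below. Over all genes the median difference was −0.06, and 10393 genes (55.2%) had a negative difference.

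Without fenofibrate replicate 3, limma also called 0 genes (0%), with a smallest adjusted p of 0.698. At an unadjusted p under 0.05 there were then 564 genes (3%) with a negative and 754 (4.01%) with a positive difference, and 883 genes passed this mark with and without the array. The sign of the difference turned in 2485 genes (13.2%) when the array was left out. Other arrays moved the negative count as well, to 417 without lipid-loaded replicate 1 and 1734 without fenofibrate replicate 1. The 2 remaining fenofibrate values lay below all values with no compound in 3257 genes (17.3%) and above them in 1771 (9.41%).

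The receptor and its partners had no difference past the test. PPARA itself stood at 0.42, 0.13 and 0.42 with no compound and 0.55, 0.23 and 0.02 with fenofibrate, each in the order of replicates 1, 2 and 3. The groups overlapped, and the difference was −0.06 (SE 0.23, 95% interval −0.57 to 0.44), or 0.06 without fenofibrate replicate 3 and 0.03 after scaling the arrays to equal spread. Its 4 probes did not share a sign. RXRA, the main partner receptor in liver, differed by 0.03 (SE 0.24), with probes of opposite sign, and the fat cell receptor PPARG by 0.09 (SE 0.22). These were named after their values were seen. PPARD differed by −0.27 (SE 0.27) and RXRG, another partner receptor, by 0.32 (SE 0.27). The coactivator PPARGC1A, which drives mitochondrial programmes, was at −0.20, −0.35 and −0.11 with no compound and 0.36, −0.41 and 0.35 with fenofibrate. Fenofibrate replicates 1 and 3 lay above all values with no compound and replicate 2 below them. MED1, the Mediator subunit that binds nuclear receptors, was lower on every fenofibrate array, with a difference of −0.31 (SE 0.22). In the list of 15 measured receptors and partners, 2 members lay below on all fenofibrate arrays (MED1 and the acetyltransferase EP300) and 0 above. These are 13.3% and 0%, against 12.4% and 6.39% of all genes. The median difference of the list was −0.02, or 0.06 without fenofibrate replicate 3 and 0.05 after scaling.

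Among the classic targets of PPARα, both secreted regulators had higher deposited ratios on every fenofibrate array. ANGPTL4, an inhibitor of lipoprotein lipase, stood at −0.43, −0.19 and −0.11 with no compound and 0.13, 0.40 and 0.78 with fenofibrate. The groups did not overlap, and replicate 3 was the highest. Its difference was 0.68 (SE 0.24, 95% interval 0.15 to 1.21), and the adjusted p by limma was 0.472. The difference was 0.51 without fenofibrate replicate 3 and 0.68 after scaling. FGF21, a fasting hormone of the liver, stood at −0.55, −0.17 and −0.30 with no compound and 0.01, 0.19 and 0.58 with fenofibrate, again with no overlap. The difference was 0.60 (SE 0.25, 95% interval 0.05 to 1.14), 0.44 without replicate 3 and 0.55 after scaling, and it did not pass the test either.

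The other targets shared no direction. CREB3L3, a liver transcription factor that controls FGF21 and apolipoprotein genes, was at 0.94, 1.08 and 0.66 with no compound and 1.35, 0.98 and 1.27 with fenofibrate. Its fenofibrate values reached higher but overlapped those with no compound, and the difference was 0.31 (SE 0.23, 95% interval −0.19 to 0.80). FABP1, the fatty acid carrier of the hepatocyte cytosol, was at 0.91, 0.51 and 0.82 with no compound and 0.99, 0.78 and 0.89 with fenofibrate, a difference of 0.14 (SE 0.27, 95% interval −0.44 to 0.72). CPT1A, which admits fatty acids into mitochondria, was at 0.37, 0.33 and 0.40 with no compound and 0.78, 0.25 and 0.17 with fenofibrate, where fenofibrate replicate 1 stood high and replicates 2 and 3 low. Its difference was 0.03 (SE 0.24, 95% interval −0.48 to 0.55), its 2 probes had opposite signs, and without fenofibrate replicate 1 the difference was −0.16. PLIN2, the droplet coat protein, was at 1.05, 0.93 and 0.86 with no compound and 0.93, 0.97 and 0.40 with fenofibrate. Only fenofibrate replicate 3 lay well below, so that the difference of −0.18 (SE 0.24, 95% interval −0.71 to 0.35) became 0.0036 without it and 0.11 after scaling.

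PDK4, the kinase that spares glucose by shutting off pyruvate dehydrogenase, was at −0.41, −0.25 and −0.15 with no compound and −0.96, −0.73 and −0.29 with fenofibrate. Fenofibrate replicates 1 and 2 lay below all values with no compound and replicate 3 among them, for a difference of −0.39 (SE 0.33, 95% interval −1.10 to 0.33). TXNIP, a thioredoxin inhibitor that responds to glucose and fatty acids, stood at 0.76, 0.63 and 0.71 with no compound and 0.41, 0.15 and −0.60 with fenofibrate. All fenofibrate values were below, replicate 3 farthest, with a difference of −0.71 (SE 0.31, 95% interval −1.40 to −0.03) and of −0.42 without that array. The mitochondrial carnitine carrier SLC25A20 differed by −0.30 (SE 0.25), the dehydrogenase ACADVL by 0.11 (SE 0.22), the pantetheinase VNN1 by 0.21 (SE 0.27) and the fatty acid hydroxylase CYP4A11 by −0.06 (SE 0.32). VNN1 turned to −0.04 without fenofibrate replicate 3, and the 2 probes of CYP4A11 had opposite signs. Among the 12 measured targets, 7 had a positive and 5 a negative difference, 2 lay above (6.39% of all genes did) and 1 below on every fenofibrate array, and 0 passed the test. The median was 0.07, 0.05 without fenofibrate replicate 3 and 0.12 after scaling. Without replicate 3, 2 lay above and 2 below (16.7% each), against 9.41% and 17.3% of all genes. After scaling 5 lay above (41.7%) and 2 below (16.7%), against 5.2% and 7.66% of all genes. After scaling without replicate 3 the median was 0.27, with 6 above (50%) and 3 below (25%), against 10.4% and 13.7%. In each of these settings 0 passed the test.

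**Figure D2:**
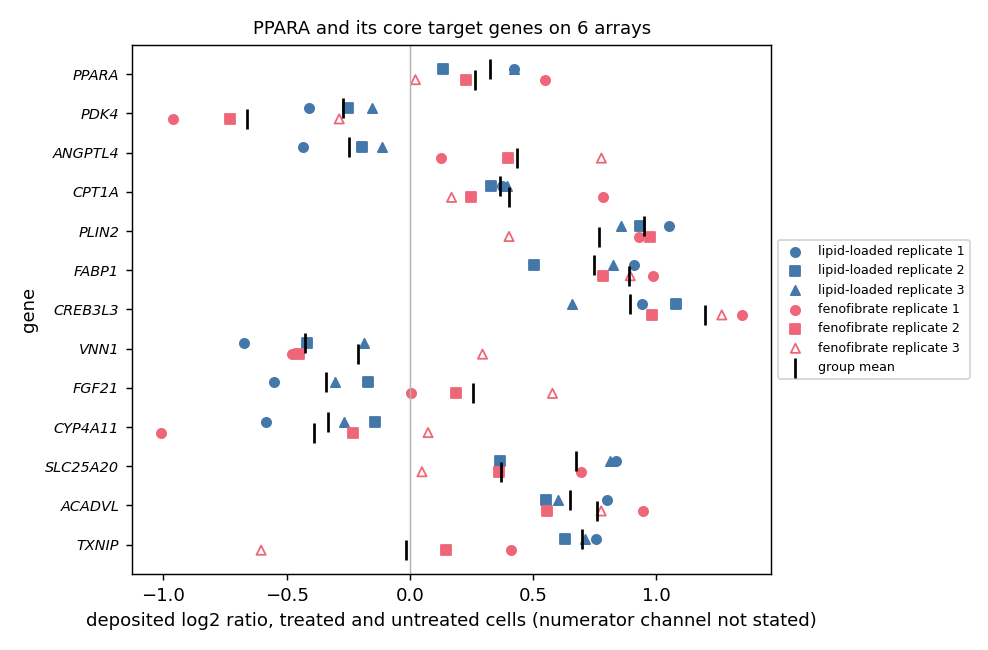
Deposited log2 ratio between treated and untreated cells (x axis) of PPARA and 12 measured target genes (y axis) on 3 lipid-loaded arrays (blue) and 3 fenofibrate arrays (red, replicate 3 as open triangles). Black bars are group means. The groups are separate for ANGPTL4 and FGF21, with fenofibrate higher, and for TXNIP, with fenofibrate lower.

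Enzymes of fatty acid oxidation mostly had slightly lower ratios with fenofibrate as deposited. Of 34 measured genes, 24 had a negative difference, 12 lay below on every fenofibrate array (35.3%, against 12.4% of all genes) and 0 above. Their median difference was −0.24, or −0.19 without fenofibrate replicate 3. This shrank when the arrays were scaled to equal spread: 4 members then lay below (11.8%, against 7.66% of all genes) and 1 above. The median was then −0.05, near that of all genes at −0.03, and 0.01 after scaling without replicate 3. DECR2, a peroxisomal reductase for unsaturated fatty acids, was at 1.03, 0.88 and 0.63 with no compound and 0.51, 0.42 and −0.02 with fenofibrate. HADHA, the large subunit of the mitochondrial trifunctional protein, was at 1.01, 0.80 and 0.74 with no compound and 0.58, 0.50 and −0.38 with fenofibrate. In both, the groups were separate and replicate 3 was the lowest fenofibrate value. Their differences were −0.54 (SE 0.24) and −0.61 (SE 0.28), and −0.33 and −0.41 after scaling. ACSL5, which activates fatty acids to their CoA esters, differed by −0.49 (SE 0.23), and the peroxisomal thiolase ACAA1 by −0.51 (SE 0.25). None of these passed the test.

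Lipid droplet genes had no common direction, with 10 positive and 12 negative differences among 22 and a median of −0.13, which turned to 0.04 after scaling. FITM2, which helps droplets form at the endoplasmic reticulum, was at 0.89, 0.50 and 0.85 with no compound and 0.36, −0.03 and −0.83 with fenofibrate. Every fenofibrate value lay below, and the spread among them was wide, with a difference of −0.91 (SE 0.31) and of −0.58 without replicate 3. LIPE, hormone-sensitive lipase, was at 0.01, −0.55 and −0.75 with no compound and 0.11, 0.10 and 0.11 with fenofibrate, where the fenofibrate values were nearly equal and all above. The main triglyceride lipase PNPLA2 differed by −0.57 (SE 0.30) with overlapping groups, and the lysosomal lipase LIPA by −0.41 (SE 0.24).

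Genes of fatty acid and triglyceride synthesis had 16 negative and 6 positive differences among 22 (median −0.12, or −0.02 after scaling), 4 below (18.2%) and 1 above on every fenofibrate array. After scaling 0 lay below and 1 above (4.55%, against 5.2% of all genes). With scaling and without replicate 3 together 0 lay below and 4 above (18.2%, against 10.4%). Without fenofibrate replicate 1, 8 lay below (36.4%, against 23.8%). FASN, fatty acid synthase, was the 1 member above with all arrays, at 0.74, 0.17 and 0.64 with no compound and 1.13, 0.80 and 0.96 with fenofibrate, a difference of 0.45 (SE 0.25). SREBF1, the transcription factor that drives it, was at 0.48, 0.10 and 0.14 with no compound and 0.68, 0.82 and 0.10 with fenofibrate. Fenofibrate replicates 1 and 2 lay above and replicate 3 did not, so the difference was 0.29 (SE 0.25), or 0.51 without that array. MLXIPL, the carbohydrate response factor, went the other way, at 0.93, 0.40 and 0.67 with no compound and 0.38, 0.31 and 0.23 with fenofibrate and a difference of −0.36 (SE 0.23). The desaturase FADS2 differed by −0.69 (SE 0.28), the elongase ELOVL6 by −0.60 (SE 0.28) and the stearoyl-CoA desaturase SCD by −0.10 (SE 0.25), with overlapping groups in each. SCD changed sign to 0.07 without fenofibrate replicate 3.

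In the sterol pathway 16 of 19 measured genes had a negative difference, with a median of −0.14 that was −0.0025 after scaling. MSMO1, a sterol demethylase, was at 1.04, 0.93 and 0.67 with no compound and 0.51, 0.26 and 0.24 with fenofibrate. PMVK, phosphomevalonate kinase, was at 0.65, 0.37 and 0.62 with no compound and 0.10, 0.06 and −0.10 with fenofibrate. Both were lower on every fenofibrate array. Their differences were −0.55 (SE 0.22) and −0.53 (SE 0.22), or −0.50 and −0.47 without fenofibrate replicate 3. For NSDHL, at −0.68 (SE 0.35), and the epoxidase SQLE, at −0.56 (SE 0.37), the difference rested on replicate 3, and without it was −0.23 and −0.06. SREBF2, the regulator of the pathway, was at 0.10, 0.30 and 0.25 with no compound and 0.51, −0.10 and 1.10 with fenofibrate, with fenofibrate values on both sides of the others.

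Lipoprotein genes were split. LPL, lipoprotein lipase, was at −0.95, −0.54 and −1.39 with no compound and −0.13, −0.06 and 0.12 with fenofibrate, with every fenofibrate value closer to 0 and higher. Its difference was 0.94 (SE 0.28), 0.87 without replicate 3 and 0.74 after scaling. APOC3, an inhibitor of triglyceride clearance, was at 0.92, 0.70 and 0.72 with no compound and 0.45, 0.30 and 0.04 with fenofibrate. MTTP, which loads lipid onto nascent lipoproteins, was at 0.89, 0.78 and 0.61 with no compound and 0.44, 0.36 and 0.13 with fenofibrate. Both were lower on every fenofibrate array, with differences of −0.52 (SE 0.26) and −0.45 (SE 0.23). APOA1, which forms the HDL particle, was also lower on each, with a difference of −0.29 (SE 0.21), but its difference stood at 0.01 after scaling, and APOA2 differed by 0.03 (SE 0.23). LCAT, which esterifies cholesterol in plasma, differed by −0.79 (SE 0.32) with overlapping groups. Over 23 measured genes the median was −0.03, −0.15 without fenofibrate replicate 3 and 0.10 after scaling. With all arrays 4 members lay below (17.4%, against 12.4% of all genes) and 1 above (4.35%, against 6.39%). After scaling 2 lay below (8.7%, against 7.66%) and 2 above (8.7%, against 5.2%).

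Among 14 bile acid genes, 4 had a positive and 1 a negative difference at an unadjusted p under 0.05, against 5.35% and 4.93% of all genes. FGF19, the hormone that represses bile acid synthesis, was at −1.15, −0.63 and −1.45 with no compound and 0.18, 0.16 and −0.14 with fenofibrate. SLC10A1, the bile acid importer of hepatocytes, was at −1.65, −1.14 and −0.75 with no compound and −0.69, 0.22 and −0.20 with fenofibrate. CYP7B1, an oxysterol hydroxylase, was at −0.95, −0.18 and −0.71 with no compound and 0.15, −0.06 and −0.06 with fenofibrate. All 3 were negative with no compound and near 0 or less negative with fenofibrate, with differences of 1.14 (SE 0.26), 0.96 (SE 0.32) and 0.63 (SE 0.25) and, for FGF19, 0.91 after scaling. The fourth was ABCB11, the bile salt export pump, which was named after its values were seen and had overlapping groups and a difference of 1.15 (SE 0.49). BAAT, which conjugates bile acids to amino acids, went the other way, at 0.90, 0.46 and 0.26 with no compound and −0.17, −0.12 and 0.07 with fenofibrate and a difference of −0.61 (SE 0.24). CYP7A1, the rate-limiting enzyme of bile acid synthesis, differed by 0.21 (SE 0.26) with overlapping groups. Each of these 6 had an adjusted p of 0.472 or above.

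Cell cycle genes were the list with the lowest median of the 19 lists, with all arrays, without fenofibrate replicate 3 and after scaling, while the p53 list was lower after both together, with array weights and without fenofibrate replicate 1. Of 36 measured genes, 34 had a negative difference, and 20 lay below on every fenofibrate array (55.6%, against 12.4% of all genes) and 0 above. At an unadjusted p under 0.05 there were 14 with a negative and 0 with a positive difference, and 0 passed the adjusted test. The list median was 0.93, 0.75 and 0.55 on lipid-loaded replicates 1, 2 and 3 and 0.43, 0.30 and 0.08 on fenofibrate replicates 1, 2 and 3. The median difference was −0.47, or −0.37 without fenofibrate replicate 3, when 22 members lay below (61.1%, against 17.3% of all genes). After scaling it was −0.29, with 14 members below (38.9%, against 7.66% of all genes). With scaling and without replicate 3 together it was −0.17, with 15 below (41.7%, against 13.7%).

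**Figure D3:**
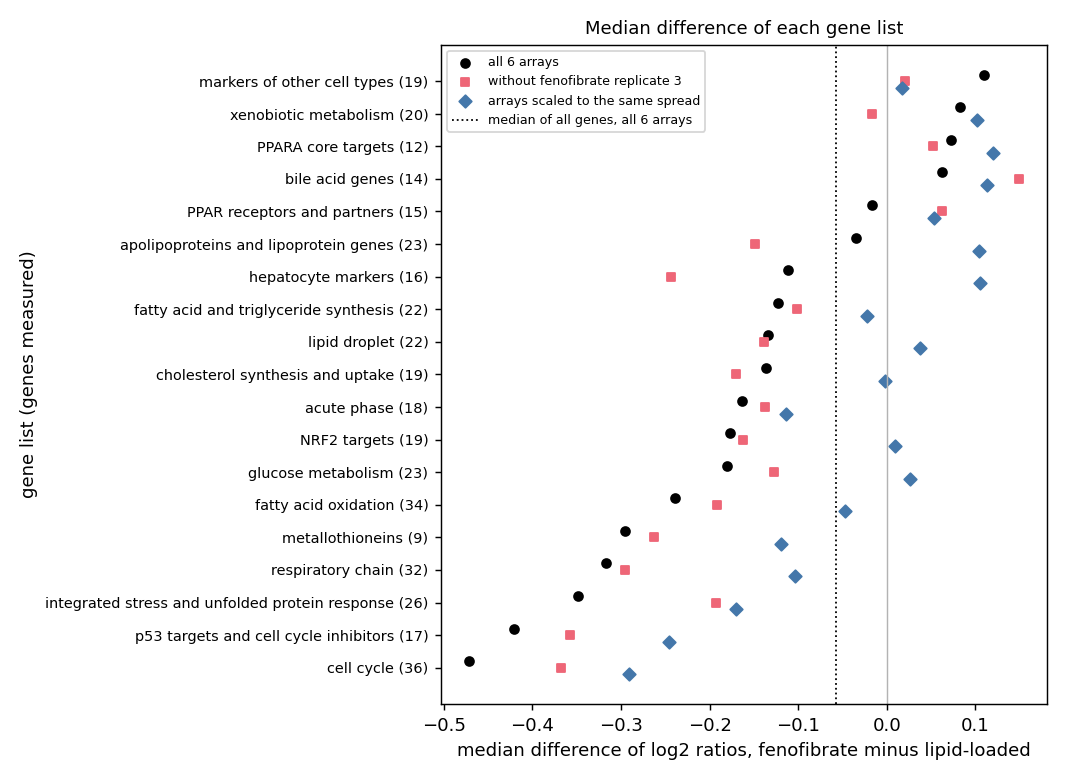
Median difference of log2 ratios, fenofibrate minus lipid-loaded (x axis), for each of 19 gene lists (y axis, with the number of genes measured), using all 6 arrays (black), without fenofibrate replicate 3 (red) and with arrays scaled to the same spread (blue). Cell cycle genes lie lowest at −0.47, −0.37 and −0.29, while the median of all genes (dotted) is −0.06.

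The named members act in different phases of the cycle. BUB1, a kinase of the spindle checkpoint, was at 0.74, 0.42 and 0.42 with no compound and 0.03, −0.12 and −0.86 with fenofibrate. KIF20A, a kinesin of cell division, was at 1.16, 0.83 and 0.58 with no compound and 0.34, 0.24 and −0.27 with fenofibrate. CDC6, which loads the replicative helicase, was at 0.47, 0.63 and 1.00 with no compound and 0.09, 0.23 and −0.60 with fenofibrate. In these 3 genes the groups were separate and fenofibrate replicate 3 was the lowest value. Their differences were −0.84 (SE 0.27), −0.76 (SE 0.26) and −0.79 (SE 0.27), each with an adjusted p of 0.472, or −0.57, −0.57 and −0.54 without that array and −0.77, −0.55 and −0.68 after scaling. RRM1, the large subunit of ribonucleotide reductase, was at 1.08, 0.92 and 0.76 with no compound and 0.46, 0.46 and −0.86 with fenofibrate, and its difference of −0.90 (SE 0.34) was −0.46 without replicate 3. Among genes in which the fenofibrate arrays agreed more closely, NDC80 of the kinetochore was at 0.92, 0.69 and 0.88 with no compound and 0.20, 0.43 and 0.27 with fenofibrate, a difference of −0.53 (SE 0.21). The thymidine kinase TK1 differed by −0.56 (SE 0.25) and the helicase subunit MCM7 by −0.54 (SE 0.22), while CCND1, cyclin D1 of early G1 phase, was at 0.83, 0.63 and 0.56 with no compound and 0.73, 0.41 and 0.87 with fenofibrate, with overlapping groups. These 4 genes were picked after their values were seen.

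The 250 bases before the annotated start of the 4 cell cycle genes with the smallest p are shown because most members of this list shared a sign. They are from RefSeq on GRCh38.p14, each 5′ to 3′ on the strand of its gene, and lie at chr2:110678064-110678313 (- strand), chr5:138178862-138179111 (+ strand), chr17:40287629-40287878 (+ strand) and chr11:4094435-4094684 (+ strand). Capitals mark the CCAAT box (CCAAT or ATTGG) and the cell cycle homology region (TTTGAA or TTCAAA), sequences known from promoters of cell cycle genes.
BUB1: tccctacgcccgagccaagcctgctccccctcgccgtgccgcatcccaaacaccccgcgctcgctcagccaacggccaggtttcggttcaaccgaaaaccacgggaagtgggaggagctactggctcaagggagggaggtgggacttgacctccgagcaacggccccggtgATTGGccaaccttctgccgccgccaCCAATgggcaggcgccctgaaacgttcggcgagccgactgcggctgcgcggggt
KIF20A: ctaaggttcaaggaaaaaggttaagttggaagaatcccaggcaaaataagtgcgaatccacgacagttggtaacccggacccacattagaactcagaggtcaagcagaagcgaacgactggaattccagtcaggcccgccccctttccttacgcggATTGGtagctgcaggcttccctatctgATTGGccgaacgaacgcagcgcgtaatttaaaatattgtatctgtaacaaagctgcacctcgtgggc
CDC6: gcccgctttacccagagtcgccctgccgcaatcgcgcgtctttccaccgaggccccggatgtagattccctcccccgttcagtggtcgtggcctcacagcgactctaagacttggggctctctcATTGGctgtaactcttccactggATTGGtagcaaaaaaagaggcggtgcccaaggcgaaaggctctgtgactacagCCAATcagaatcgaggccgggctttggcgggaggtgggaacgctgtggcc
RRM1: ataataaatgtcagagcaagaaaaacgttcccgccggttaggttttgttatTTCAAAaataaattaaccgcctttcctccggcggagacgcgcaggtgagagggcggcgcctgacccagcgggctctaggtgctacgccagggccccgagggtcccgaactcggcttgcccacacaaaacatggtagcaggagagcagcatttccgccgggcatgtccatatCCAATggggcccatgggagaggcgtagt
A CCAAT box was found in all 4 windows: 2 in BUB1, 2 in KIF20A, 3 in CDC6 and 1 in RRM1. Over the list, 22 of 29 members with a promoter in the table had at least 1 (75.9%), against 5074 of 14792 tested genes (34.3%). TTTGAA was in 10 of 29 (34.5%) against 10.7% of tested genes, and the E2F-like letters TTTGGCGC, TTTCGCGC or TTTCCCGC were in 8 (27.6%) against 3.21%, counting both strands, and matches of different motifs may overlap. The CCAAT box was in 15 of 19 members lower on every fenofibrate array and in 7 of 10 members with overlapping groups. TTTGAA was in 5 of 19 and 5 of 10, and the E2F-like letters were in 6 of 19 and 2 of 10. Whether these motifs relate to the difference was not tested. A match is a description of these windows and not evidence of binding.

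Targets of p53 and inhibitors of the cell cycle had a negative difference in 16 of 17 measured genes, with a median of −0.42, −0.36 without fenofibrate replicate 3 and −0.25 after scaling. On every fenofibrate array used, 5 members lay below with all arrays (29.4%, against 12.4% of all genes). The count was 6 without replicate 3 (35.3%, against 17.3%) and 5 after scaling (29.4%, against 7.66%). It was 9 (52.9%) without lipid-loaded replicate 3 and also without fenofibrate replicate 1, against 19.4% and 23.8% of all genes. BAX, which permeabilises mitochondria in apoptosis, had the smallest p among genes with a negative difference, at 1.32, 1.37 and 1.28 with no compound and 0.27, −0.71 and 0.13 with fenofibrate. The values with no compound were nearly equal and all fenofibrate values lay far below, with a difference of −1.43 (SE 0.27, 95% interval −2.03 to −0.82) and an adjusted p of 0.472 by limma. The difference was −1.54 without replicate 3 and −1.19 after scaling. TP53I3, a p53-induced quinone reductase, was at 0.62, 1.08 and 0.43 with no compound and −0.32, −0.08 and −0.04 with fenofibrate, a difference of −0.86 (SE 0.24). TNFRSF10B, a death receptor, was at 0.55, 0.87 and 0.61 with no compound and 0.16, −0.05 and −0.50 with fenofibrate. Its difference was −0.81 (SE 0.27), and that of SESN1, a stress-induced inhibitor of growth signalling, was −0.58 (SE 0.24).

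Subunits of the respiratory chain had lower deposited ratios in 29 of 32 measured genes, with 14 below on every fenofibrate array (43.8%) and 2 above. The count below was 22 without lipid-loaded replicate 2 (68.8%, against 19.6% of all genes). The median was −0.32, or −0.30 without fenofibrate replicate 3. After scaling it was −0.10, and 3 members lay below (9.38%, against 7.66% of all genes). NDUFV2 of complex I was at 1.13, 0.64 and 0.73 with no compound and 0.38, 0.40 and −0.41 with fenofibrate, a difference of −0.71 (SE 0.27) and of −0.51 after scaling. NDUFB10, also of complex I, differed by −0.62 (SE 0.27), SDHA of complex II by −0.73 (SE 0.34) and COX5A of complex IV by −0.58 (SE 0.26). In all 4, fenofibrate replicate 3 was the lowest of the 6 values. The plot of 3 lists by array shows that respiratory genes and cell cycle genes both had lower medians on the fenofibrate arrays than on those with no compound.

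**Figure D4:**
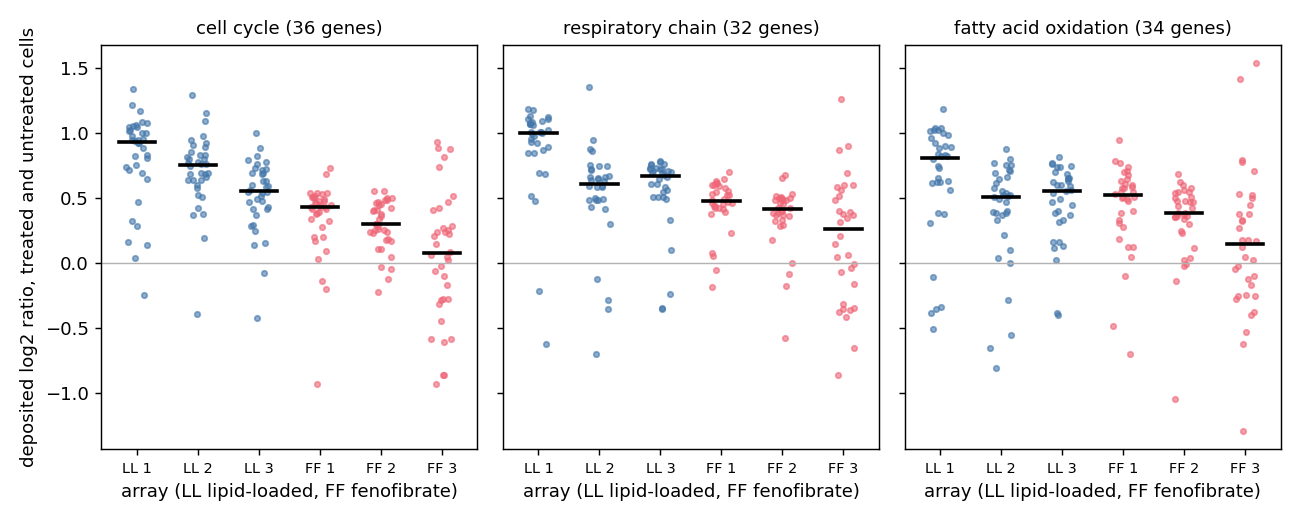
Deposited log2 ratios (y axis) of cell cycle, respiratory chain and fatty acid oxidation genes on lipid-loaded (LL, blue) and fenofibrate (FF, red) arrays 1 to 3 (x axis), 1 point a gene with black bars at the list median. The cell cycle medians run from 0.55 to 0.93 with no compound and from 0.08 to 0.43 with fenofibrate.

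Genes of the integrated stress and unfolded protein responses had a negative difference in 24 of 26, with 6 below on every fenofibrate array (23.1%). After scaling 1 lay below (3.85%, against 7.66% of all genes). The count was 11 (42.3%) without lipid-loaded replicate 3 and also without fenofibrate replicate 1, against 19.4% and 23.8% of all genes. The median of −0.35 was −0.19 without fenofibrate replicate 3 and −0.17 after scaling. SLC7A11, the cystine importer that ATF4 and NRF2 both control, was at 0.93, 0.74 and 0.51 with no compound and 0.30, −0.12 and 0.07 with fenofibrate, a difference of −0.64 (SE 0.23) and −0.63 without replicate 3. ASNS, asparagine synthetase, was at 1.55, 1.09 and 0.89 with no compound and 0.84, 0.84 and −0.45 with fenofibrate, and its difference of −0.77 (SE 0.35) was −0.34 without that array. XBP1, the factor that expands the endoplasmic reticulum, and SLC7A5, an amino acid transporter, differed by −0.55 (SE 0.25) and −0.59 (SE 0.28) with overlapping groups. Of 19 NRF2 targets 8 lay below (42.1%) and 0 above, with a median of −0.18. After scaling only 2 lay below (10.5%, against 7.66% of all genes) and the median was 0.01. HMOX1, heme oxygenase, was at 1.14, 0.62 and 0.99 with no compound and 0.75, −0.09 and −0.41 with fenofibrate, a difference of −0.83 (SE 0.31), and TXNRD1, thioredoxin reductase, differed by −0.40 (SE 0.24) and the ketosteroid reductase AKR1C3 by −0.35 (SE 0.23).

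The 3 fibrinogen chains were lower on every fenofibrate array. FGA was at 0.80, 0.62 and 0.38 with no compound and 0.27, 0.02 and 0.05 with fenofibrate. FGB was at 0.86, 0.55 and 0.48 with no compound and 0.17, −0.11 and −1.94 with fenofibrate, where replicate 3 lay far below the rest. FGG was at 1.05, 0.55 and 0.75 with no compound and 0.34, 0.14 and −0.25 with fenofibrate. The differences were −0.48 (SE 0.24), −1.25 (SE 0.45) and −0.71 (SE 0.25), and without fenofibrate replicate 3 −0.45, −0.60 and −0.54. SERPINA3, another acute phase protein, differed by −0.53 (SE 0.27) with overlapping groups. Of 18 acute phase genes, 4 lay below (22.2%) and 0 above, with a median of −0.16. After scaling the median was −0.11, with 3 below (16.7%, against 7.66% of all genes).

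Hepatocyte markers, measured in 16 genes, had a median of −0.11, which was −0.24 without fenofibrate replicate 3 and 0.11 after scaling. There were 13 negative and 3 positive differences, with 2 members below (12.5%) and 1 above (6.25%) on every fenofibrate array. Without replicate 3, 8 lay below (50%, against 17.3% of all genes). After scaling 1 lay below (6.25%, against 7.66%) and 1 above. With scaling and without replicate 3 together, 3 lay below (18.8%, against 13.7%) and the median was −0.06. TAT, a gluconeogenic aminotransferase, was the 1 member above, by 0.61 (SE 0.28). RBP4, the retinol carrier, differed by −0.51 (SE 0.32), or −0.13 without replicate 3. Of 19 markers of blood, stromal, endothelial, fat and bile duct cells, 2 lay above and 0 below. These are 10.5% and 0%, against 6.39% and 12.4% of all genes. The median difference of these markers was 0.11, or 0.02 after scaling. On single arrays the median of these markers ran from −0.57 to −0.34 with no compound and from −0.56 to 0.03 with fenofibrate. ADIPOQ, the adipocyte hormone, was at −2.84, −1.90 and −0.86 with no compound and −0.60, −0.26 and 0.13 with fenofibrate, and COL1A1, a fibroblast collagen, at −0.61, −0.89 and −1.55 with no compound and −0.56, −0.04 and 0.35 with fenofibrate. In both, the values with no compound spread widely below those with fenofibrate. The differences were 1.62 (SE 0.46) and 0.94 (SE 0.36), or 1.44 and 0.72 without fenofibrate replicate 3. The macrophage marker CD68 differed by −0.76 (SE 0.36) and the smooth muscle actin ACTA2 by −0.68 (SE 0.33), with overlapping groups in both. Fenofibrate replicate 3 was the lowest value of each, and without it the differences were −0.285 and −0.276. The labels name HepG2, a cell line, for every sample and give no other cell type. Ratios do not show whether these markers were expressed, and the part of any other cells in the results was not tested.

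Drug metabolism genes showed no shared direction, with 11 positive and 9 negative differences among 20 and a median of 0.08, or −0.02 without fenofibrate replicate 3. CYP2D6, a drug oxidase, was at −0.95, 0.31 and −0.32 with no compound and 0.81, 0.40 and 0.60 with fenofibrate, where all fenofibrate values lay above and lipid-loaded replicate 1 was the lowest, for a difference of 0.93 (SE 0.32). UGT2B15, a steroid glucuronosyltransferase, was higher by 0.61 (SE 0.27), and its relative UGT2B4 differed by −0.39 (SE 0.25). Genes of this family are close in sequence, and whether the probes tell them apart is not given in the sources used here. CYP3A4 differed by 0.45 (SE 0.31) and the xenobiotic receptor NR1I3 by 0.75 (SE 0.39), in both cases with probes of opposite sign. CYP1A1, the marker of aryl hydrocarbon receptor activity, was at 0.24, −0.62 and 0.23 with no compound and 1.12, −0.32 and 0.01 with fenofibrate, with overlapping groups.

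In glucose metabolism, GYS2, the glycogen synthase of liver, was at −1.97, −1.33 and −1.51 with no compound and −0.35, −0.12 and −0.13 with fenofibrate. The groups were far apart, with a difference of 1.40 (SE 0.26, 95% interval 0.83 to 1.98), or 1.37 without fenofibrate replicate 3 and 1.03 after scaling. The adjusted p by limma was 0.472 with all arrays. Hexokinase HK1 differed by −0.64 (SE 0.27), the glucose phosphatase G6PC1 by −0.61 (SE 0.29) and the glycolytic kinase PGK1 by −0.47 (SE 0.24). The 23 genes together had a median of −0.18, or 0.03 after scaling. With all arrays 3 members lay above (13%, against 6.39% of all genes) and 3 below (13%, against 12.4%). Metallothioneins and their zinc partners, 9 genes, had a median of −0.30. With all arrays 1 lay above (11.1%, against 6.39% of all genes) and 2 below (22.2%, against 12.4%). The median was −0.08 without lipid-loaded replicate 1. It was −0.12 after scaling, with 0 above and 1 below (11.1%, against 7.66% of all genes), and −0.0069 after scaling without fenofibrate replicate 3. MT1X differed by −0.47 (SE 0.24), MT2A by −0.54 (SE 0.29), the zinc exporter SLC30A1 by −0.61 (SE 0.31) and MT4 by 0.42 (SE 0.31). Metallothionein genes are near-identical copies, so these values are uncertain.

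Over all genes, 128 had a difference of at least 1 with separate groups and 27 a difference of −1 or lower with separate groups. The 10 with the smallest p on the positive side, each measured by probes that agreed in sign, were HAUS7, DNAJC17, LAIR1, PATE4, BRD3OS, GYS2, LINC00887, ZFP2, FAM90A20 and FAM216B. HAUS7, a subunit of the augmin complex of the spindle, was at −1.23, −1.13 and −1.02 with no compound and 0.43, 0.15 and 0.66 with fenofibrate, a difference of 1.54 (SE 0.26). DNAJC17, a J-domain protein of the spliceosome, was at −1.34, −0.96 and −1.17 with no compound and 0.29, 0.07 and 0.07 with fenofibrate, a difference of 1.30 (SE 0.22). LAIR1, a collagen receptor of immune cells, was at −0.71, −0.56 and −0.35 with no compound and 1.16, 0.63 and 0.75 with fenofibrate, a difference of 1.39 (SE 0.24). In 9 of the 10 genes all 3 values with no compound were below 0 and all 3 with fenofibrate above 0, the exception being GYS2, which was below 0 throughout. FAM90A20 belongs to a family of near-identical copies and is uncertain.

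On the negative side the 10 were BAX, SLC22A9, NUDT19, APOL1, TYMSOS, ZNF560, ZNF780B, STAG3L3, RHEBL1 and DTD2. SLC22A9, an organic anion transporter of liver, was at 0.43, 0.55 and 0.47 with no compound and −0.57, −0.49 and −0.74 with fenofibrate, with 3 fenofibrate values close together and a difference of −1.08 (SE 0.25). APOL1, an apolipoprotein of dense lipoprotein particles, was at 0.61, 0.87 and 0.68 with no compound and −0.15, −0.03 and −0.90 with fenofibrate, a difference of −1.08 (SE 0.26). TYMSOS, a transcript from the opposite strand of the thymidylate synthase gene, was at −0.04, 0.65 and 0.18 with no compound and −0.70, −0.59 and −0.96 with fenofibrate, a difference of −1.01 (SE 0.25). RHEBL1, a small GTPase, was at 1.25, 0.22 and −0.05 with no compound and −0.79, −0.98 and −3.12 with fenofibrate, and its difference of −2.10 (SE 0.54) was −1.36 without replicate 3. STAG3L3 is a near-identical partial copy of another gene and is uncertain. All 20 had an adjusted p of 0.472 in limma. Without fenofibrate replicate 3 their differences ran from 1.23 to 1.61 and from −1.54 to −0.81. Genes chosen for separate groups cannot change sign when an array is left out, so the kept sign is no test.

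**Figure D5:**
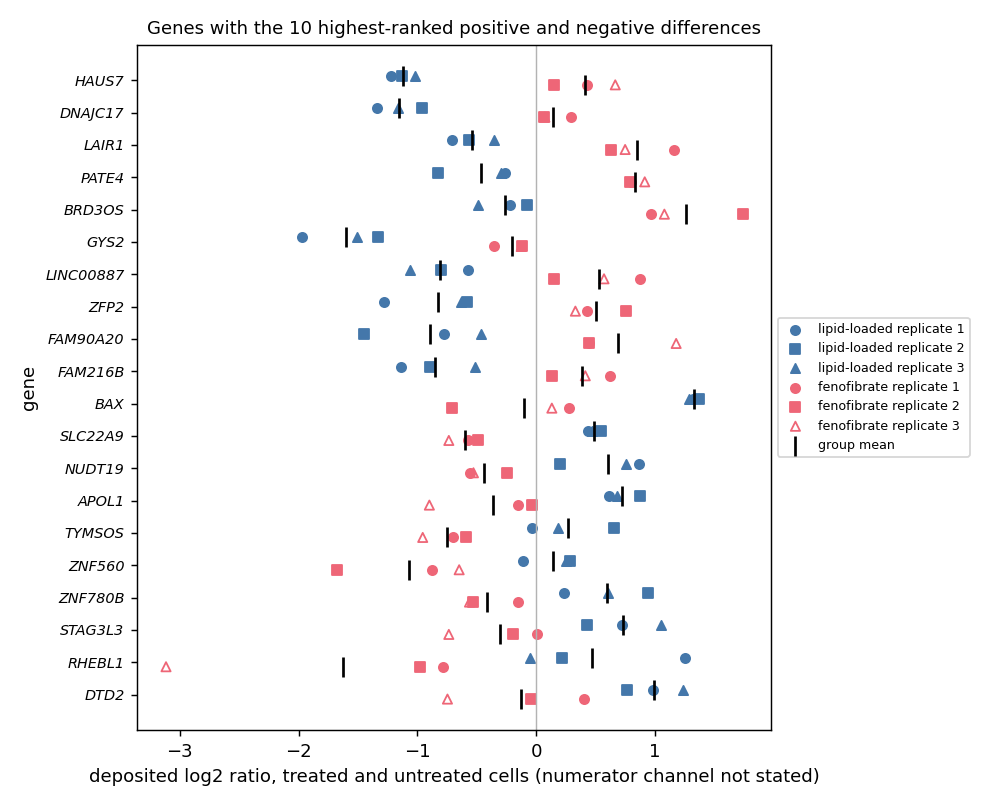
Deposited log2 ratio between treated and untreated cells (x axis) of the 10 positive and 10 negative differences with the smallest p among genes with separate groups and a difference of at least 1 (y axis), on lipid-loaded (blue) and fenofibrate (red, replicate 3 open) arrays with group means as black bars. The positive genes lie below 0 with no compound, and RHEBL1 shows the widest spread, down to −3.12 on fenofibrate replicate 3.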

How the data were processed

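The authors deposited log2 ratios of the 2 channels for 29187 probes on 8 arrays, with 4 missing values. As deposited, the log2 values had been made by taking the logarithm of ratios with 3 decimals and shifting each array by 1 constant. This was read from a part of the values of each array between ratios of 0.2 and 2, 100% of which fitted it within 0.0001. Scale is thus base 2 and centring a mean near 0. Numerator, scanner and background correction: not given in the sources used here. Column medians were −0.0048, 0.0402 and 0.058 for lipid-loaded, 0.0865, 0.0635 and −0.012 for fenofibrate, and 0.0452 and 0.0507 for linalool arrays. The number of arrays limits the precision.

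From these, 25053 probes with 1 gene symbol (0 had several, 4134 none) were averaged into 18821 genes. Gene identifiers of 24981 matched a current table, and 0 symbols differed. Genes with at least 2 values per group entered a two-sided limma fit (version 3.58.1, under R 4.3.3, functions lmFit and eBayes) with 1 coefficient per group over all 8 arrays, so that the 2 linalool arrays add to the estimate of the spread. The Benjamini-Hochberg threshold was 0.05. The fit was tested on simulated data only with planted changes larger than most differences seen here. That test says nothing about smaller changes. The 19 lists and the arrays compared were chosen with earlier results of these data known. Named genes were PPARA and its targets, the 4 members of each other list with the smallest p, 14 fixed regulators and markers where measured, and the 10 genes on each side with the smallest p among those with separate groups, a difference of at least 1 and probes of one sign. Others are marked where named. Alternatives are listed in the closing section, and a filter on dim probes was not run, since the values hold no brightness.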

Additional observations from a re-analysis of the deposited data

How the results depend on the processing

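The count of genes past the adjusted threshold was 0 under every alternative run: the 2 conditions alone, array weights, quantile normalization, arrays scaled to equal spread or centred on the median, median of probes, robust eBayes, probes as the unit, and leaving out each array, with a smallest adjusted p between 0.290 (without fenofibrate replicate 1) and 0.869. Those run without fenofibrate replicate 3 gave 0 too, with a smallest adjusted p between 0.683 and 0.869. The fit with the replicate number as a block also gave 0 calls and changed no other call. Deviations of same-numbered arrays from their group means correlated at 0.14, −0.021 and 0.083 for numbers 1, 2 and 3, so the numbers were not taken as pairs. The 3 arrays a condition limit what can be seen, and probe brightness is not in the values, so the filter on dim probes was not run.

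Counts at an unadjusted p under 0.05, 928 negative and 1006 positive, were 420 and 529 after scaling the arrays to equal spread. They were 530 and 514 with that and without fenofibrate replicate 3, which was chosen after seeing the data. Quantile normalization gave 556 negative. Leaving out 1 array gave 417 (without lipid-loaded replicate 1) to 1734 (without fenofibrate replicate 1) negative and 721 to 1284 positive. Genes with separate groups, 2335 below and 1203 above, were 1441 below and 979 above after scaling, and 2580 below and 1954 above after scaling without fenofibrate replicate 3. Leaving out 1 array gave 2907 to 4483 below (3691 without lipid-loaded replicate 2, 3659 without lipid-loaded replicate 3 and 4483 without fenofibrate replicate 1) and 1771 (without fenofibrate replicate 3) to 2524 (without fenofibrate replicate 1) above, where fewer arrays have to be separate.

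Of list members below on every fenofibrate array, 14 respiratory genes became 4 with quantile normalization, 3 after scaling and 5 after scaling without replicate 3 (14 to 22 leaving out 1 array, the latter without lipid-loaded replicate 2). For fatty acid oxidation 12 became 4, 4 and 4 (12 to 16), and for NRF2 targets 8 became 4, 2 and 2 (8 to 10). Cell cycle genes gave 20 to 28 and p53 targets 5 to 9 leaving out 1 array, and 14 to 16 and 5 to 6 under these 3 settings. Over all genes 12.4% lay below with all arrays, 8.7% with quantile normalization, 7.66% after scaling and 13.7% after scaling without replicate 3. Leaving out 1 array gave 15.4% to 23.8% of all genes below.

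Of 108 named genes, 93 kept their sign throughout and 15 did not, none of them past the test. Named genes with separate groups could not change sign by leaving out 1 array. After scaling, PPARA stood at 0.026, PLIN2 at 0.11, SCD at 0.0413 and APOA1 at 0.0083. With quantile normalization PPARA stood at 0.0261 and SCD at 0.0778, with the median of probes PPARA at 0.0267, and with array weights SREBF2 at −0.0198. After scaling without replicate 3, PPARA stood at 0.15, PLIN2 at 0.30, VNN1 at −0.19, SLC25A20 at 0.0353, SCD at 0.22, SQLE at 0.12, CYP7A1 at −0.12, ASNS at 0.0204 and RBP4 at 0.0843. Leaving out 1 array, PPARA ran from −0.20 to 0.0612, CPT1A from −0.16 to 0.15, PLIN2 from −0.28 to 0.0036, VNN1 from −0.0393 to 0.35, CYP4A11 from −0.29 to 0.25, SCD from −0.23 to 0.0656, SREBF2 from −0.0104 to 0.59, APOA2 from −0.10 to 0.15 and CYP1A1 from −0.10 to 0.62. The cause of these changes of sign was not tested.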

Other observations

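Families read from gene symbols, chosen after earlier results were known, add to the picture of the difference. Cytosolic ribosomal proteins, 76 genes, had 65 negative differences, 17 members below on every fenofibrate array (22.4%, against 12.4% of all genes) and 0 above, with a median of −0.20. After scaling the arrays to the same spread the median was −0.04, close to −0.03 for all genes. Then 7 lay below (9.21%, against 7.66% of all genes) and 3 above (3.95%, against 5.2%). Proteasome subunits, 44 genes, had a median of −0.34, or −0.12 after scaling. With all arrays 14 lay below (31.8%), and after scaling 3 did (6.82%, against 7.66% of all genes). The 6 subunits of the MCM helicase, which unwinds DNA at replication, had a median of −0.53, or −0.34 after scaling. In both settings 3 lay below (50%), against 12.4% of all genes with all arrays and 7.66% after scaling. Kinesins, a family of 38 motor proteins with and without roles in division, had a median of −0.05, against −0.06 for all genes.

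Olfactory receptors, keratin-associated proteins and long intergenic RNAs had positive medians with all arrays. The 296 olfactory receptor genes had a median difference of 0.16, 0.05 without fenofibrate replicate 3 and 0.06 after scaling, but −0.03 after both together. Keratin-associated proteins, 65 genes of hair, had medians of 0.22, 0.11, 0.12 and 0.06 in that order. The 253 long intergenic RNAs had medians of 0.22, 0.11, 0.11 and 0.03, with 34 above on every fenofibrate array (13.4%, against 6.39% of all genes) and 3 below. After scaling 15 lay above (5.93%, against 5.2%) and 6 below, and after scaling without replicate 3 there were 27 above (10.7%, against 10.4%) and 27 below. Of olfactory receptors 23 lay above (7.77%) and 15 below. After scaling 15 lay above (5.07%, against 5.2% of all genes) and 16 below (5.41%, against 7.66%). The median ratio of olfactory receptors was −0.40, −0.29 and −0.25 on lipid-loaded replicates 1, 2 and 3 and −0.29, −0.14 and −0.0039 on fenofibrate replicates 1, 2 and 3. The part of probe brightness in these medians was not tested.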
